A study of Mus musculus with 6 samples.

Results

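The 10 genes described here encode the isomerase step, the triose steps and the pyruvate-forming steps of glycolysis, together with a pair of regulators of its flux. They are Gpi1, Tpi1, Gapdh, Pgk1, Pgam1, Eno1, Eno2, Pkm, Pfkfb3 and Pfkfb4. They were listed by name as parts of the pathway, with earlier results of these data known. All 10 were found among the 22962 genes of the deposited table. RNA was sequenced from mouse alveolar macrophages, the resident phagocytes of the air spaces. C57BL/6 mice had received bleomycin or saline into the trachea, and the cells were washed from the lungs 2 weeks later. Bleomycin is a DNA-breaking drug used to produce lung fibrosis. There were 3 bleomycin libraries (replicates 1, 2 and 5) and 3 saline libraries (replicates 1, 2 and 3). In both groups red cells were lysed, and cells that had adhered to a plate within 30 min were kept, so the material is an adherent lavage fraction and not a sorted population. Whether each library came from its own mouse is not stated in the labels, and the p-values therefore reflect only the variation among these samples, some of which may be technical.

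Glycolysis splits a six-carbon sugar into 3-carbon units and turns them into pyruvate, yielding ATP and NADH. Pfkfb enzymes make and break fructose 2,6-bisphosphate, the activator of phosphofructokinase, and so set the pace of the upper pathway. Macrophages raise glycolysis when activated by inflammatory signals or low oxygen, and several of these genes are known targets of the hypoxia-inducible factor HIF-1.

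Of the 10 genes, 2 rose in bleomycin libraries and 0 fell. They were Pgam1, the phosphoglycerate mutase of most tissues, and Eno2, the enolase best known from neurons. Pgam1 was 1.65-fold higher and Eno2 5.65-fold higher. Neither passed the test without bleomycin replicate 2 or without bleomycin replicate 5. Eno2 was under 10 in saline replicate 2 and entered the test only with the help of bleomycin libraries. Eno1, the abundant enolase, was 1.31-fold higher with groups that did not overlap, but did not pass the test. Of the 10 genes, 8 had a log2 fold change smaller than 0.5 in size. The median size over all genes tested, 0.24, was also below 0.5. Calls are from limma's moderated test on log2(value + 1), with Benjamini-Hochberg adjustment over all 13512 genes tested and a threshold of 0.05. At an unadjusted limma p under 0.05 there were 3 of the 10 higher and 1 lower (Pfkfb4), where 15.6% of all genes tested were higher and 10.3% lower. Both edgeR and DESeq2 on recovered reads also called 0 of the 10 lower. After adjustment 9.76% of all genes tested rose and 3.9% fell. The median log2 fold change was 0.13 over the 10 genes and -0.01 over all genes tested, and the median size of a change was 0.26 for the 10 genes and 0.24 for all.

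Recovered reads numbered 28916201 to 37147983 in bleomycin libraries and 27654799 to 29899133 in saline libraries. The labelled cell type was checked against its markers. Siglecf, a lectin that defines resident alveolar macrophages, was abundant in both groups, at 7228 to 8182 in bleomycin libraries and 12651 to 16187 in saline libraries. Of 15 resident markers 8 fell and 1 rose, and of 13 tested markers of monocyte-derived macrophages 11 rose. Over all genes tested 9.76% rose and 3.9% fell. Ly6c2, F13a1 and Cx3cr1, which rose, were under 10 in saline replicate 3 and entered the test only with the help of bleomycin libraries. The summed level of the monocyte-derived list was 146900 to 272910 in bleomycin libraries and 5881 to 9073 in saline libraries. In such bulk samples a change in the mix of cells and a change within each cell cannot be told apart.

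The promoters of both genes that rose are printed first, with that of Pgk1, a well-known HIF-1 target that did not pass the test, for comparison. Each runs from upstream of a RefSeq gene start to just past it, 5′ to 3′ on the gene's strand, from RefSeq on GRCm38.p6. Capitals mark ACGTG, a form of the core of the hypoxia response element, and CACGT, the same letters on the other strand. Other forms of the core were not searched. The reverse core is read as its own match, so a CACGTG would count once on each strand. The windows are Pgam1 chr19:41911621-41911920 (plus strand), Eno2 chr6:124769624-124769923 (minus strand) and Pgk1 chrX:106186850-106187149 (plus strand).
Pgam1: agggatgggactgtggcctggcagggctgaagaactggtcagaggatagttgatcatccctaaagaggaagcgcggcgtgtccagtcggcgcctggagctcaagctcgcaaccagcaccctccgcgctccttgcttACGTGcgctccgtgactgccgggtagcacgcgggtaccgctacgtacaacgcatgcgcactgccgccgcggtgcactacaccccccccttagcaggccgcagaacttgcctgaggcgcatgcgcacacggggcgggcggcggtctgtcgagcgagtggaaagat
Eno2: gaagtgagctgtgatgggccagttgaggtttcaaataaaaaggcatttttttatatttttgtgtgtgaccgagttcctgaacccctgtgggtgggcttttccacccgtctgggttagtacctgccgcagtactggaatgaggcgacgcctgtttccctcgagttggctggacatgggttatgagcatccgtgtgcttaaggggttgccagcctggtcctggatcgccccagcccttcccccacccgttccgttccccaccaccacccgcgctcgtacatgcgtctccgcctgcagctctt
Pgk1: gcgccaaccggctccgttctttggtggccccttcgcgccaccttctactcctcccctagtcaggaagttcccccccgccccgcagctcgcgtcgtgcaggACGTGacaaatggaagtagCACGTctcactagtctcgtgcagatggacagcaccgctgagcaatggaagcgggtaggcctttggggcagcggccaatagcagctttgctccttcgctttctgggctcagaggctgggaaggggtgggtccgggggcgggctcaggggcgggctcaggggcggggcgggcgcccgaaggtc
The Pgam1 window held ACGTG once and the Pgk1 window held it once on each strand, at separate places. The Eno2 window held neither form. Of the 14 promoter windows listed for the 10 genes, 6 held ACGTG or CACGT, in Gapdh, Pgk1, Pgam1, Pkm and Pfkfb3. ACGTG or CACGT was in 19.6% of all 32851 promoters of that length. A match is a description of the letters only.

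**Figure D1:**
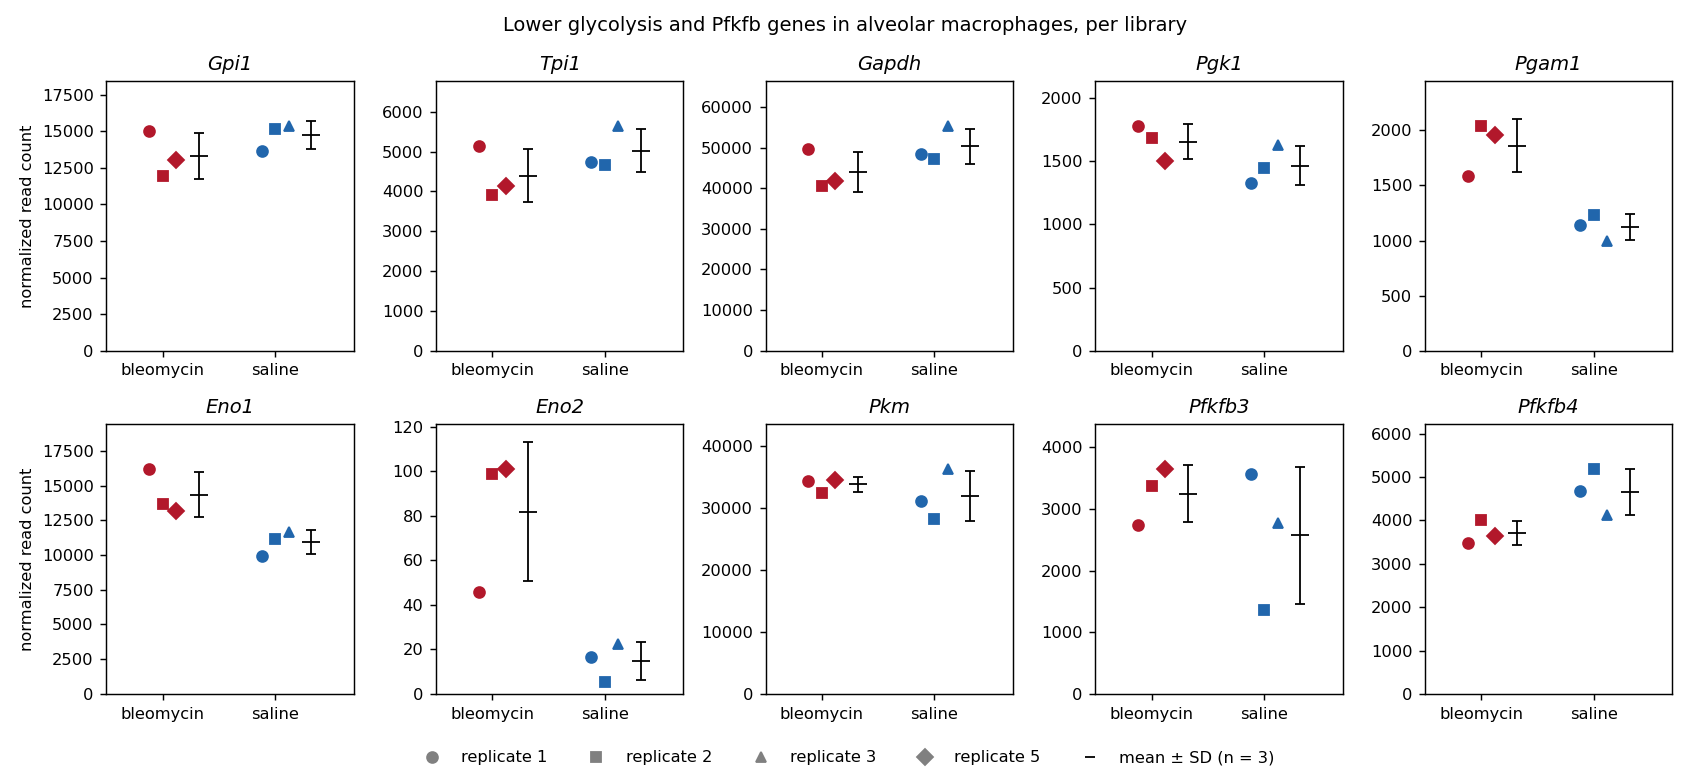
Normalized read count (vertical axis, from 0) of each of the 10 genes in 3 bleomycin libraries (red, left) and 3 saline libraries (blue, right). Symbols mark the replicate number, and bars give the mean ± SD. In Pgam1, Eno1 and Eno2 every bleomycin library lies above every saline library, and in Pfkfb4 every one lies below.

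The first 3 genes act at the isomerase and triose steps. Gpi1, which interconverts glucose 6-phosphate and fructose 6-phosphate, had normalized read counts of 15043, 11937 and 13048 in bleomycin libraries, against 13645, 15190 and 15367 in saline libraries. Bleomycin replicate 1 lay among the saline values, and the groups overlapped. The log2 fold change was -0.15 ± 0.12 (SE; 95% interval -0.43 to 0.13; limma adjusted p = 0.525). Tpi1, the triose phosphate isomerase, had 5149, 3908 and 4137 in bleomycin libraries, against 4750 (replicate 1), 4669 (replicate 2) and 5644 (replicate 3) in saline libraries. Again bleomycin replicate 1 stood above the other two, within the saline range. Its log2 fold change was -0.20 ± 0.14 (95% interval -0.51 to 0.12; limma adjusted p = 0.444).

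Gapdh, which oxidises glyceraldehyde 3-phosphate and forms NADH, had 49572, 40417 and 41822 in bleomycin libraries, against 48398, 47200 and 55306 in saline libraries. The groups overlapped through bleomycin replicate 1. With a log2 fold change of -0.20 ± 0.13 (95% interval -0.51 to 0.11; limma adjusted p = 0.428), the data leave room for a small difference in either direction. Tpi1 and Gapdh had the most alike profiles of any pair among the 10, with a root mean square difference of 0.035 log2 units over the 6 libraries after centring each gene on its mean.

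The next 5 genes carry the 3-carbon acids to pyruvate, and each had a positive estimate, though 3 of the 5 did not pass the test. Pgk1, which makes the first ATP of this stretch, had 1778, 1681 and 1504 in bleomycin libraries, against 1323, 1447 and 1624 in saline libraries. Its groups overlapped, with a log2 fold change of 0.18 ± 0.13 (95% interval -0.11 to 0.46; limma adjusted p = 0.447).

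Pgam1, which moves the phosphate of 3-phosphoglycerate to the next carbon, had 1590, 2040.4 and 1955 in bleomycin libraries, against 1139, 1234 and 995 in saline libraries. All 3 bleomycin values were above all 3 saline values, with bleomycin replicate 1 the nearest to them. The means were 1862 ± 239 in bleomycin libraries and 1123 ± 121 in saline libraries (SD, n = 3 each). The log2 fold change was 0.73 ± 0.14 (95% interval 0.40 to 1.05), and the limma adjusted p was 0.0104. Without bleomycin replicate 2 the adjusted p was 0.0716, and without bleomycin replicate 5 it was 0.0678.

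Eno1, the main enolase of most tissues, had 16182, 13669 and 13156 in bleomycin libraries, against 9966, 11131 and 11650 (replicate 3) in saline libraries. The groups did not overlap, but the fold change of 1.31 did not pass the threshold. On the log2 scale it was 0.39 ± 0.12 (95% interval 0.11 to 0.67; limma adjusted p = 0.0744). Eno1 passed under DESeq2, which called 11.4% of genes higher, with an adjusted p of 0.0346. It also passed under quantile normalization, which called 8.53% higher, with a limma adjusted p of 0.0264.

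Eno2 had 45.8, 98.9 and 100.9 in bleomycin libraries, against 16.7, 5.43 and 22.3 in saline libraries. Bleomycin replicate 1 was below the other two bleomycin libraries but above every saline library. These values rest on 258 reads over the bleomycin libraries and 43 reads over the saline libraries, so Eno2 is the least precisely measured of the 10. The means were 81.9 ± 31.2 in bleomycin libraries and 14.8 ± 8.57 in saline libraries (SD, n = 3 each). The log2 fold change was 2.5 ± 0.54 (95% interval 1.26 to 3.73; limma adjusted p = 0.017). Eno2 was under 10 in saline replicate 2, so it entered the test only with the help of bleomycin libraries, where it was high. Its rise is thus tied in part to the filter. Without bleomycin replicate 2 the adjusted p was 0.0912, and without bleomycin replicate 5 it was 0.0915.

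Many markers of other cell types also differed, not all in the same direction. Over all genes tested 9.76% rose and 3.9% fell. Of 10 T cell markers 9 rose and Cd2 fell. Cd3d, Cd3e, Cd3g, Cd8a, Cd8b1, Trac and Cd28 were under 10 in every saline library. They entered the test only through the bleomycin libraries, where they were high, so their rises are tied to the filter. The remaining T cell markers that rose, and some epithelial and fibroblast markers that rose, were also under 10 in a saline library. Cd2 held most of the list's summed level, which was 7811 to 10940 in bleomycin libraries and 12851 to 15596 in saline libraries. The other 9 summed to 230, 666 and 769 in bleomycin libraries, against 43.1, 25.0 and 37.1 in saline libraries. Cd3e, a T cell receptor subunit, was at 21.6, 75.8 and 88.8 in bleomycin libraries, against 2.94, 0 and 1.06 in saline libraries. The 6 B cell markers summed to 84.4, 1045 and 684 in bleomycin libraries, against 20.6, 16.3 and 18.0 in saline libraries. Of 10 epithelial markers 6 rose and Epcam fell, and the whole list summed to 4852 to 5130 in bleomycin libraries and 5903 to 7055 in saline libraries. Epcam was at 1966, 1154 and 1160.2 in bleomycin libraries, against 4871, 4280 and 3983 in saline libraries. The 7 epithelial markers with a saline mean under 100 summed to 888, 1611 and 2024 in bleomycin libraries, against 196, 147 and 209 in saline libraries. That cut left out Epcam, and Cdh1 and Scgb1a1, which did not pass the test. Both this cut and the leaving out of Cd2 used these saline values. The low saline sums of the 7 epithelial and 9 T cell markers thus follow in part from the choice. Of 6 tested fibroblast markers 3 rose, and the list summed to 882, 310 and 805 in bleomycin libraries, against 36.3, 60.8 and 321 in saline libraries. Of 5 tested neutrophil markers 3 rose, and the list summed to 5672, 6597 and 5808 in bleomycin libraries, against 2552, 3848 and 3100 in saline libraries. Ly6g, Elane and Ngp, also on the neutrophil list, were not in the deposited table. Mpo (7 reads over the bleomycin libraries, 0 over the saline libraries) and Camp (2 and 0 reads) were below the filter. Among bleomycin libraries, replicate 1 was lowest for Eno2, the 9 T cell markers, the B cell list, the 7 epithelial markers and the neutrophil list. It was also lowest for Pgam1, Pfkfb3 and Pfkfb4. The monocyte-derived list was lowest there too, at 146900, against 247350 in replicate 2 and 272910 in replicate 5. Replicate 1 was highest for the fibroblast list, the resident list and the whole T cell list with Cd2. The whole T cell list was at 10940 there, against 8060 in replicate 2 and 7811 in replicate 5. The whole epithelial list was at 5124, 4852 and 5130 in replicates 1, 2 and 5, lowest in replicate 2. A list of red cell markers was at 70.1, 126 and 8.62 in replicates 1, 2 and 5, lowest in replicate 5. The part of these cells in the Eno2 result was not tested.

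Pkm, whose product is the pyruvate kinase of macrophages and most other tissues, had 34391, 32433 and 34457 in bleomycin libraries, against 31168, 28225 and 36226 in saline libraries. The saline values bracketed the bleomycin values, and the log2 fold change was 0.09 ± 0.13 (95% interval -0.20 to 0.38; limma adjusted p = 0.737). Values are per gene, so the splice forms of Pkm were not separated.

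**Figure D2:**
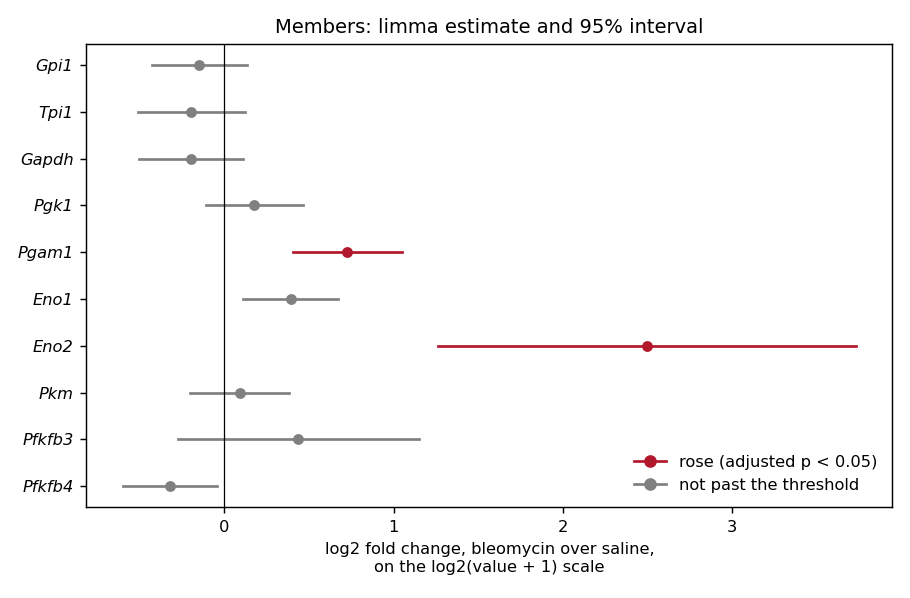
Log2 fold change of each of the 10 genes, bleomycin over saline (horizontal axis), with its 95% interval from limma (3 libraries per group). Pgam1 at 0.73 and Eno2 at 2.5 rose (red), and the other 8 did not pass the threshold (grey).

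The Pfkfb genes make enzymes with a kinase and a phosphatase activity on the same protein. In Pfkfb3 the kinase prevails, and the gene is known for its induction in activated macrophages. It had 2736, 3371 and 3645 in bleomycin libraries, against 3575, 1369 and 2766 in saline libraries. Saline replicate 2 lay far below the rest, and the coefficient of variation was 14.3% in bleomycin libraries and 43.4% in saline libraries. Its log2 fold change was 0.44 ± 0.31 (95% interval -0.27 to 1.15; limma adjusted p = 0.448), and it was 0.04 without saline replicate 2.

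Pfkfb4 had 3480, 4019 and 3652 in bleomycin libraries, against 4686, 5181 and 4117 in saline libraries. All bleomycin values were below all saline values, the one such case among the 10. The log2 fold change of -0.32 ± 0.12 (95% interval -0.60 to -0.05; limma adjusted p = 0.132) did not pass the threshold. Groups that did not overlap were seen in 3 of the 10 genes with bleomycin higher, where 17.2% of all genes tested had that pattern, and in 1 with bleomycin lower, where 13.6% did.

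Ratios between genes were formed within each library after adding 1 to each value, which raises the ratio where Eno2 is low. The ratio of Eno2 to Eno1, the share of the neuronal form against the main enolase, was 0.00289, 0.00731 and 0.00774 in bleomycin libraries, against 0.00177, 0.000578 and 0.0020 in saline libraries. Eno2 was thus at most 0.00774 of Eno1 in any library. The mean log2 ratio was higher by 2.11 in bleomycin libraries, by 2.22 with nothing added and by 1.78 with 5 added. The ratio of Pgam1 to Gapdh was 0.0321, 0.0505 and 0.0468 in bleomycin libraries, against 0.0236, 0.0262 and 0.0180 in saline libraries, a log2 difference of 0.92.

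The ratio of Pfkfb3 to Pfkfb4 was 0.786, 0.839 and 0.998 in bleomycin libraries, against 0.763, 0.264 and 0.672 in saline libraries. Its log2 difference of 0.76 dropped to 0.28 without saline replicate 2. None of the 3 ratios overlapped between groups. Each gave p = 0.1 in a two-sided exact permutation test over 20 splits (0.1 also after adjustment over the 3), the smallest p that 3 libraries against 3 allow.

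**Figure D3:**
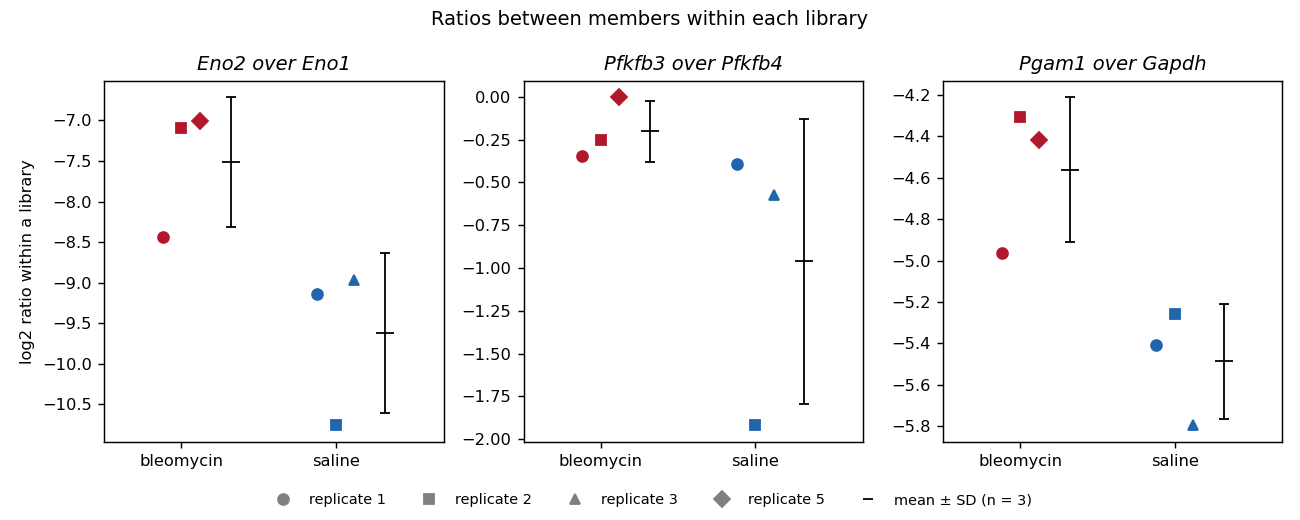
Log2 ratio of one gene to another within each library (vertical axis) in 3 bleomycin libraries (red, left) and 3 saline libraries (blue, right), with mean ± SD. Bleomycin libraries lie above saline libraries in all 3 ratios, and saline replicate 2 is lowest for Eno2 over Eno1 and for Pfkfb3 over Pfkfb4.

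Levels were compared between genes per kb of the principal transcript. Gapdh was the highest, with a mean normalized count per kb of 30942 in bleomycin libraries and 35423 in saline libraries. Pkm followed at 13882 in bleomycin libraries and 13106 in saline libraries. Eno1, Gpi1, Tpi1 and Pfkfb4 came next in both groups, though Eno1 and Gpi1 overlapped among saline libraries, and Pfkfb4 overlapped with Pgam1 among bleomycin libraries. Pgam1 and Pfkfb3 overlapped among saline libraries. Pgam1 stood above Pgk1 in bleomycin libraries, at 1049 per kb for Pgam1 and 906 for Pgk1, with overlapping libraries. In saline libraries Pgam1 stood below Pgk1, at 633 per kb for Pgam1 and 802 for Pgk1, without overlap. Eno2 was lowest, at 29.3 per kb in bleomycin libraries and 5.29 in saline libraries.

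**Figure D4:**
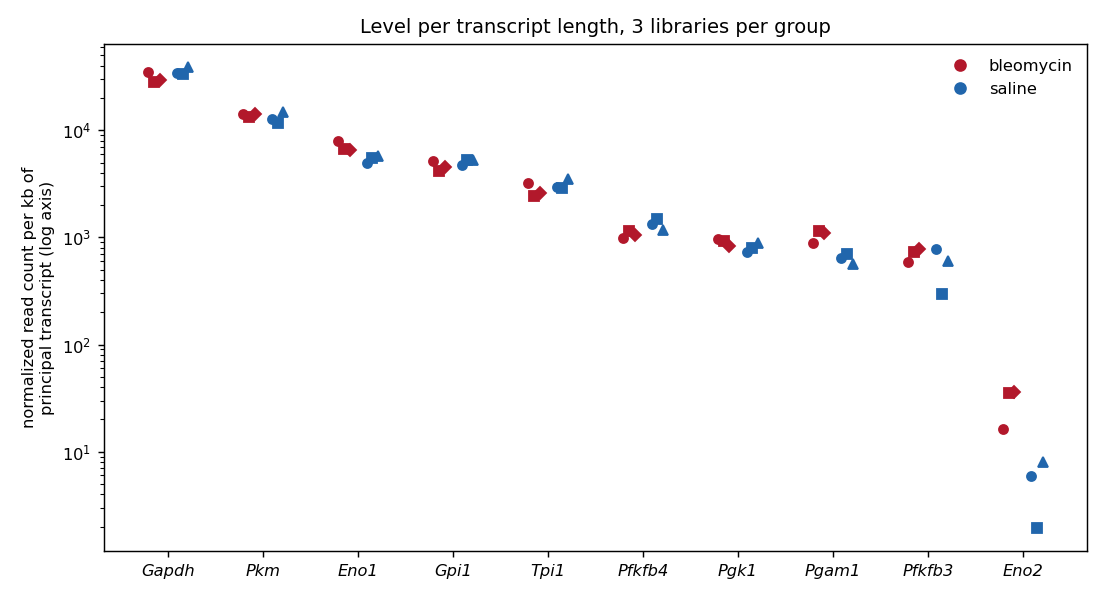
Normalized read count per kb of principal transcript (log axis) for the 10 genes in order of their saline mean, with bleomycin libraries (red) left of saline libraries (blue). Gapdh is highest and Eno2 lowest in both groups, and Pgam1 and Pgk1 change places.

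Within the bleomycin group, replicate 1 was highest in 5 genes (Gpi1, Tpi1, Gapdh, Pgk1 and Eno1) and lowest in 4 (Pgam1, Eno2, Pfkfb3 and Pfkfb4). Among saline libraries, replicate 3 was highest in 7 genes and replicate 2 lowest in 5. The genes with the profile nearest to Pgam1 among 11559 compared were Rnf145 and Galc, with root mean square differences of 0.0407 (Rnf145) and 0.0454 (Galc) log2 units over 6 libraries. Those nearest to Eno2 were Ahr at 0.151 and Plagl1 at 0.191.

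Several of the genes have processed copies elsewhere in the genome, so their counts depend on how shared reads were handled. In windows of 50 bases along the principal transcript, 82.5% of those of Gapdh also occurred in another annotated gene, as did 72.2% for Eno1, 68.0% for Pgk1 and 41.5% for Pgam1. The share was 34.4% for Pkm and 25.3% for Gpi1. For Eno2 the share was 0.255%, and for Pfkfb4 it was 0. The summed level of the copies in the table was small, at 1.9% of Gapdh, 0.977% of Pgam1 and 0.426% of Eno1. Reads lost to such copies cannot be counted from these values.

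On GRCm38, Pgam1 (ENSMUSG00000011752) lies at chr19:41911923-41918660 on the plus strand and Eno2 (ENSMUSG00000004267) at chr6:124760053-124769673 on the minus strand. Tpi1 (chr6:124810586-124814296) and Gapdh (chr6:125161715-125166467) lie on the same chromosome and strand as Eno2. Eno1 lies at chr4:150236721-150248879, Pgk1 at chrX:106187100-106203699 and Gpi1 at chr7:34201330-34230336. Pkm lies at chr9:59656368-59679375, Pfkfb4 at chr9:108991778-109032228 and Pfkfb3 at chr2:11471433-11554077. All 10 are annotated as protein-coding. Exons of Gpi1, Tpi1 and Gapdh overlap exons of a gene on the opposite strand (Gm26762, Spsb2 and Iffo1), and the strand setting of the counting is not given in the sources used here.

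Around these genes, 47 other glycolysis genes were listed, of which 37 were tested. Of the 37, 8 rose and 5 fell, where 9.76% of all genes tested rose and 3.9% fell. The median log2 fold change of the 37 was 0.15. These counts rest on few libraries. Without bleomycin replicate 2, 1 rose and 1 fell, and without bleomycin replicate 5, 0 rose and 1 fell. With any bleomycin library left out, Ldhb, which rose with all libraries, was below the filter and not tested. Over all genes the calls also dropped, from 1319 higher and 527 lower to 522 and 166 (without replicate 2) or 502 and 162 (without replicate 5). Without bleomycin replicate 1, 6 rose and 5 fell, and without saline replicate 2, 8 rose and 5 fell. Without saline replicate 1, 5 rose and 4 fell, and without saline replicate 3, 4 rose and 4 fell. Upstream, 5 of 9 upper glycolysis genes rose and 1 fell. Pfkm, the muscle phosphofructokinase, had 126, 94.5 and 94.0 in bleomycin libraries, against 31.4, 36.9 and 54.1 in saline libraries (log2 1.36, limma adjusted p = 0.015). Pfkp, the platelet form and far more abundant here, fell by 0.46 on the log2 scale (limma adjusted p = 0.0208). The hexokinases Hk1 and Hk2, which trap glucose in the cell, rose by 0.76 (Hk1) and 0.86 (Hk2) log2 units, with limma adjusted p of 0.0208 (Hk1) and 0.0212 (Hk2). All 4 lost their call without bleomycin replicate 2 or bleomycin replicate 5, and Pfkp, Hk1 and Hk2 also without saline replicate 1 or saline replicate 3.

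Of 9 genes of lactate, glucose and pyruvate handling 3 rose, where 9.76% of all genes tested rose. Ldhb, the lactate dehydrogenase subunit of heart, had 750, 726 and 840 in bleomycin libraries, against 8.83, 8.69 and 6.36 in saline libraries. Ldhb was thus low in every saline library, with a log2 fold change of 6.44 ± 0.23 (limma adjusted p = 4.9e-06). It was under 10 in each saline library and entered the test only through the bleomycin libraries. Ldha, the subunit of muscle, was at 22335, 17831 and 17951 in bleomycin libraries, against 15962, 17247 and 19580 in saline libraries, with overlapping groups (log2 0.14, limma adjusted p = 0.61). Slc2a1, the glucose transporter GLUT1, rose by 0.84 log2 units (limma adjusted p = 0.00873), and Slc16a1, the monocarboxylate transporter MCT1, rose by 0.70 (limma adjusted p = 0.0375). Slc16a1 lost its call in 8 of 18 alternatives, among them leaving out any 1 of the 3 bleomycin libraries, saline replicate 2 or saline replicate 3. Slc2a1 lost it without bleomycin replicate 5. Slc2a3 had a log2 fold change of 1.15 that did not pass (limma adjusted p = 0.335).

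Of 4 tested enzymes that oppose glycolysis 2 fell, where 3.9% of all genes tested fell. Tigar lowers fructose 2,6-bisphosphate, the product of the Pfkfb kinases. It had 759, 750.4 and 733 in bleomycin libraries, against 1119, 1263 and 1048 in saline libraries (log2 -0.61, limma adjusted p = 0.0119). Pcx, which carboxylates pyruvate, had 52.1, 72.5 and 69.8 in bleomycin libraries, against 143, 282 and 132 in saline libraries (log2 -1.43, limma adjusted p = 0.02). Both Tigar and Pcx lost their call without bleomycin replicate 2 or bleomycin replicate 5. G6pc3 and Pck2 had log2 fold changes of 0.16 (G6pc3) and -0.06 (Pck2) and did not pass.

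Of 8 genes at branches from the triose and 3-carbon steps 2 fell, where 3.9% of all genes tested fell. Gpd1, which diverts dihydroxyacetone phosphate to glycerol 3-phosphate, had 124, 135 and 99.1 in bleomycin libraries, against 495, 323 and 392 in saline libraries. The groups lay far apart, with a log2 fold change of -1.74 ± 0.22 (limma adjusted p = 0.0013). Phgdh takes 3-phosphoglycerate, the substrate of Pgam1, into serine synthesis. It had 2976, 1577 and 1340.4 in bleomycin libraries, against 4509, 6660.1 and 4193 in saline libraries (log2 -1.44, limma adjusted p = 0.0133), and lost its call without bleomycin replicate 2 or bleomycin replicate 5. Pgm1 and Pgm2 had log2 fold changes of 0.23 (Pgm1) and 0.24 (Pgm2) and did not pass.

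Of the close relatives of the 10 genes, 7 were tested and 0 passed (0 also at an unadjusted limma p under 0.05, and 0 by edgeR or DESeq2). Their log2 fold changes were 0.67 for Eno4, 0.42 for Pfkfb2, 0.05 for Pfkfb1 and 0.01 for Eno1b (these 2 changed sign under 4 alternatives each), -0.13 for Pgam5, -0.16 for Eno3 and -0.80 for Pgam2.

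**Figure D5:**
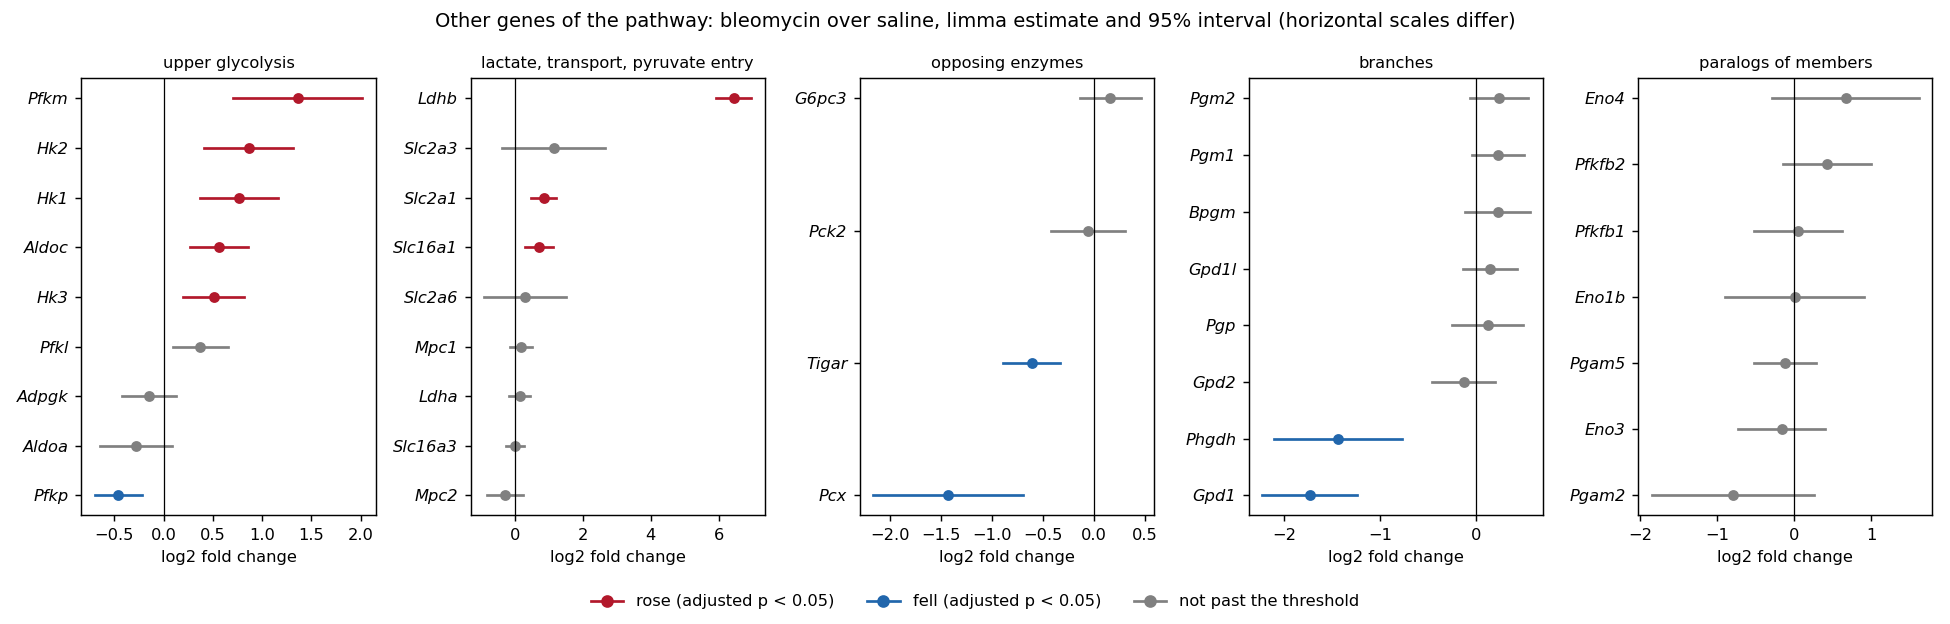
Log2 fold change, bleomycin over saline (horizontal axes, scales differ), with 95% limma intervals for 37 other genes in 5 lists. Red marks the 8 that rose, led by Ldhb at 6.44, blue the 5 that fell, led by Gpd1 at -1.74, and grey the 24 that did not pass.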

How the data were processed

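RNA of 6 libraries was measured. The submitters' processing notes name bcl2fastq (version 2.18.0.12), STAR (2.5.2b), HTSeq (0.6.0), DESeq2 and the build mm10, without saying which did what. No source used here states the annotation release or strand setting. Values deposited by the authors are a normalized signal. Dividing each by the value of 1 read gave whole reads for 100% of values (within 0.05 of a read), so they behave as read counts over 1 size factor per library. A GRCm38 annotation gave symbols for 22873 of 22962 identifiers.

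Tested were the genes that reached 10 in 3 or more libraries, using limma (3.58.1, R 4.3.3) on values logged after adding 1, with an intensity trend, two-sided, by treatment alone. A gene under 10 in any saline library could be tested only with the help of bleomycin libraries. That held for Eno2, Ldhb and several cell type markers. Folds on this scale understate changes of low genes. Intervals are at 95% and unadjusted. Ratios used the same added 1 and were tested by exact permutation. The fit was repeated with a pseudocount of 0.5 or 5, unfiltered, with a filter at 50, with TMM or quantile scaling, robust variances, no trend, a replicate block, libraries left out, and, on recovered reads, edgeR (4.0.16) and DESeq2 (1.42.0). On those reads edgeR called 1303 genes higher and 518 lower, and DESeq2 called 1544 higher and 769 lower. The fit was tested on simulated data.

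The members, gene lists, ratios and tests were chosen with earlier results of these data known. Named genes were all 10 members, the 4 with the smallest p in each other list, tested relatives, and the 2 genes nearest each member that rose. Ldha, Fbp1, Cd2, Cd3e and Epcam were named after their values were seen. Cd3d, Cd3g, Cd8a, Cd8b1, Trac, Cd28, F13a1, Cdh1 and Scgb1a1 were named by their saline values.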

Additional observations from a re-analysis of the deposited data

How the results depend on the processing

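Of 179 fold changes of the 10 genes recomputed under 18 alternatives, 171 kept their direction and side of the threshold, 5 lost the call, 2 gained it and 1 reversed. The reversal was Pkm, at -0.0074 log2 with both saline replicate 2 and bleomycin replicate 1 left out. The number of the 10 genes that rose was 1 at a minimum value of 50, where Eno2 was not tested, and 0 to 2 with a library left out, the 0 without bleomycin replicate 2 or 5. No member fell under any alternative. Of the other pathway genes, 3 rose and 3 fell without the intensity trend, and with a library left out 0 to 8 rose and 1 to 5 fell; with any 1 bleomycin library left out Ldhb was below the filter and not tested. Gpd1 kept its call under all 18 alternatives and Ldhb under the 14 that tested it. Without bleomycin replicate 2 the calls over all genes were 522 higher and 166 lower, and without bleomycin replicate 5 they were 502 higher and 162 lower, against 1319 higher and 527 lower with all libraries; the cause was not tested. Quantile normalization gave 1152 higher and 738 lower.

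With a replicate block 1 of the 10 genes rose (Eno2, while Pgam1 had a limma adjusted p of 0.259), and 2 other pathway genes rose and 3 fell. The block rests on numbers 1 and 2 alone. The deviations of same-numbered libraries from their group means correlated at -0.201 (number 1) and 0.0237 (number 2). With so few libraries these correlations cannot decide whether same-numbered libraries were paired, and the labels do not say. At 3 reads a gene had a value of 2.59 to 3.30, and the Eno2 values of saline libraries rest on few reads.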

Other observations

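Fbp1, the gluconeogenic fructose bisphosphatase, was below the filter and varied by library. It had 1.80, 0 and 0.862 in bleomycin libraries, against 870, 0 and 4.24 in saline libraries, so nearly all of its level came from saline replicate 1.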
